A study of Mus musculus with 20 samples.

Results

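The SR protein, hnRNP and SF3 genes of the mouse abdominal aorta are 38 protein-coding genes whose symbols start with Srsf, Hnrnp or Sf3, of 14583 genes with a transcript listed in both the WT and the KO Ang II tables. They comprise 10 Srsf, 19 Hnrnp and 9 Sf3 genes. The rule names 40 annotated genes, of which Hnrnpa3 and Srsf12 were not analysed here. The members were represented by 155 annotated transcripts of 30974 listed in both tables, and 121 of the 155 had a mean of at least 1 FPKM (sequenced fragments relative to transcript length and library size), as had all 38 genes when their transcripts were summed.

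RNA was sequenced from the abdominal aorta of mice in 4 groups of 5 libraries. The groups were mice labelled KO that were infused with angiotensin II (Ang II, a vasoconstrictor peptide that raises blood pressure) at 500 ng per kg per min, mice labelled KO given saline, wild-type (WT) mice infused with Ang II at the same dose, and WT mice given saline. DAPK1, the gene in the title of the series, encodes a kinase activated by calcium and calmodulin. The labels do not give how the KO was made, nor strain, sex, age or duration. Because the KO saline table lists only 5 member transcripts, comparisons use the other 3 groups. Their libraries are named by their titles, and values are given in the order KOAng_II402, KOAngII537, KOAngII560, KOAngII612 and KOAngII628 for KO-labelled Ang II, then WTAng_II519, WTAng_II536, WTAngII568, WTAngII580 and WTAngII581 for WT Ang II, then WTNS_369, WTNS_373, WTNS_523, WTNS_547 and WTNS_550 for WT saline.

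Splicing removes introns from pre-mRNA in the spliceosome. SR proteins carry RNA recognition motifs and a tail rich in arginine and serine, and they commonly promote the use of exons by binding exonic enhancers, whereas many hnRNP proteins coat nascent RNA and often act as silencers. SF3A and SF3B are complexes of the U2 snRNP, the particle that recognises the intron branch point. Many of these genes regulate their own mRNA through exons or retained introns that send transcripts to nonsense-mediated decay or keep them from being translated.

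Dapk1, the gene named in the title, was detected in every library labelled KO Ang II. Its transcript listed in both tables, Dapk1-202, had 4.51, 9.46, 0.514, 6.51 and 2.73 FPKM in KO-labelled Ang II. It had 9.16, 19.9, 3.96, 9.5 and 11.1 FPKM in WT Ang II, and 15.4, 9.48, 10.1, 12.6 and 12.9 FPKM in WT saline. The KO-labelled and WT Ang II groups overlapped, and the difference of -1.15 ± 0.45 (SE, log2(FPKM + 1)) had an adjusted p of 0.674 in limma. All 5 KO-labelled Ang II libraries, of which the highest was at 9.46 FPKM, were below all 5 WT saline libraries, of which the lowest was at 9.48 FPKM, with a difference of -1.44 ± 0.45 (adjusted p = 0.438). The KO Ang II table also lists Dapk1-207, at 13.3 FPKM in library KOAngII560. Every direction below that involves the KO-labelled libraries therefore rests on their label and not on absence of Dapk1 RNA.

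The alternative exons below are shown because they set which protein isoforms, or which decay transcript, each gene makes. The sequences are those of GENCODE M21 transcripts on GRCm38, and coordinates are of the exon. In the first 3, which code for part of the glycine- and tyrosine-rich tail of the protein, capitals mark TAT and TAC triplets in the reading frame, the codons of tyrosine.
Hnrnpa2b1 exon of 120 nt, chr6:51464428-51464547, minus strand: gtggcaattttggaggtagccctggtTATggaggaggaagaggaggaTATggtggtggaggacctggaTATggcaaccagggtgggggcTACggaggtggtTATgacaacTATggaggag
Hnrnpab exon of 141 nt, chr11:51601750-51601890, minus strand: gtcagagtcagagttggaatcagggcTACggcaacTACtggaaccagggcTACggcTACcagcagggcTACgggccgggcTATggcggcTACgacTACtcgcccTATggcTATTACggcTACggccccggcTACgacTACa
Hnrnpd exon of 147 nt, chr5:99963731-99963877, minus strand: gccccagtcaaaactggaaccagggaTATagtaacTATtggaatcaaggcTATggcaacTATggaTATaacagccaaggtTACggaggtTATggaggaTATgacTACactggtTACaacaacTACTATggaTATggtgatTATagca
Such triplets made up 6 of 39 whole triplets in the Hnrnpa2b1 exon, 14 of 46 in the Hnrnpab exon and 14 of 48 in the Hnrnpd exon. In the next pair capitals mark the exon itself, and lower case marks the 12 bases on each side of it in the spliced transcript.
Hnrnpa2b1 exon of 36 nt, chr6:51467391-51467426, minus strand: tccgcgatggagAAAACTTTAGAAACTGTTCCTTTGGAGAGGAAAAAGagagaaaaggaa
Hnrnpd exon of 57 nt, chr5:99976534-99976590, minus strand: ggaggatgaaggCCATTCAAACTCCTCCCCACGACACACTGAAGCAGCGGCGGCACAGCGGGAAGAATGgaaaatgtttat
The 36 nt exon distinguishes the B1 from the A2 protein of Hnrnpa2b1, and the 57 nt and 147 nt exons together define the isoforms of Hnrnpd, also known as AUF1. In the last sequence capitals mark the first stop triplet in frame, which begins at base 57 of an exon of the decay transcript Hnrnpl-213.
Hnrnpl exon of 70 nt, chr7:28817335-28817404, plus strand: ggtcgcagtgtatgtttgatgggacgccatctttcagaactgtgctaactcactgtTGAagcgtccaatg

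Hnrnp genes held 73.0% of the members' summed FPKM, Srsf genes 16.5% and Sf3 genes 10.5%, taking means over the 15 libraries. Hnrnpa2b1, which binds AG-rich RNA and takes part in mRNA transport, had the highest level, at 168 ± 15.8 FPKM in KO-labelled Ang II, 167 ± 11.4 in WT Ang II and 165 ± 10.7 in WT saline (SD, n = 5 each). Hnrnph1, which binds runs of G, followed at 81.6 ± 18.4, 94.1 ± 25.8 and 93.8 ± 18.0 FPKM in KO-labelled Ang II, WT Ang II and WT saline. That place rests on the sum over all its transcripts, of which a mean of 96.1% lay on transcripts not annotated as protein coding. Its coding transcripts Hnrnph1-201 and Hnrnph1-202 averaged 1.13 and 2.09 FPKM over the 15 libraries. Among the SR proteins the levels were highest for Srsf6, at 37.9 ± 3.39, 41.4 ± 3.26 and 41.0 ± 2.27 FPKM, and for Srsf11, at 25.5 ± 3.36, 29.1 ± 3.82 and 29.2 ± 2.74 FPKM, in the same order of groups. Among the SF3 subunits they were highest for Sf3b2, at 48.8 ± 4.00, 51.8 ± 4.08 and 49.1 ± 2.78 FPKM, and for Sf3b6, the branch-site subunit p14, at 18.9 ± 2.89, 18.0 ± 1.54 and 16.8 ± 1.06 FPKM. The group means of each of these 6 genes lay within the spread of the libraries. At the low end, Srsf7, an SR protein that also takes part in mRNA export, averaged 2.45 ± 1.01, 1.30 ± 1.13 and 2.02 ± 1.23 FPKM.

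**Figure D1:**
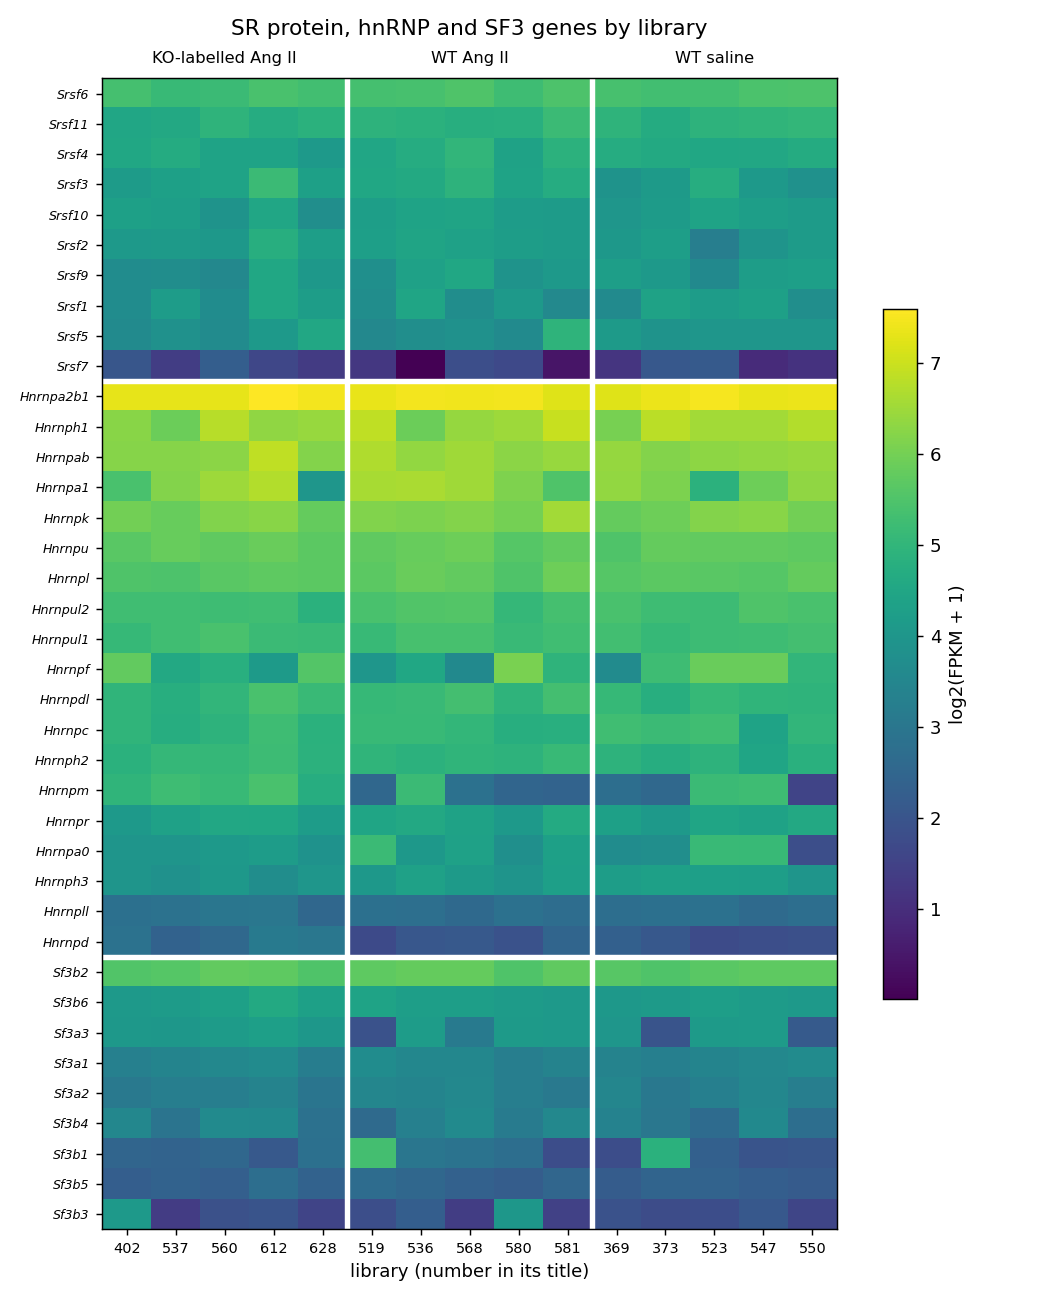
Level of each of the 38 genes as log2(FPKM + 1), by colour, in 5 KO-labelled Ang II, 5 WT Ang II and 5 WT saline libraries (columns, marked by the number in the title), in blocks of Srsf, Hnrnp and Sf3 genes. Hnrnpa2b1 is high in every library, and Hnrnpm, Hnrnpf, Hnrnpa0, Sf3a3, Sf3b1 and Sf3b3 differ between libraries of the same group.

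The summed FPKM of the members was 1174 ± 117 in KO-labelled Ang II, 1229 ± 43.2 in WT Ang II and 1168 ± 54.2 in WT saline (SD, n = 5 each). That was 0.292% ± 0.0492, 0.329% ± 0.0352 and 0.299% ± 0.0428 of the FPKM of all annotated transcripts listed in both tables. The ranges of the 3 groups overlapped for the sum of each family as well. In bulk tissue fewer cells of a type and less RNA per cell cannot be told apart.

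No member differed between WT Ang II and WT saline after adjustment over the 12546 genes tested with limma, and none of those genes did (percent called 0). At an unadjusted p under 0.05, 1 of 38 members passed, against 4.96% of all genes. Differences were above 0 for 28 of 38 members, with a median of 0.07 on the log2(FPKM + 1) scale, and for 53.9% of all genes tested, with a median of 0.02. All 9 Sf3 genes had differences above 0, between 0.01 and 0.55 with a median of 0.16, and so had 13 of 19 Hnrnp and 6 of 10 Srsf genes. The largest Sf3 differences were 0.55 ± 0.62 (SE) for Sf3b1 and 0.37 ± 0.52 for Sf3b3. Sf3b1 was at 39.5 FPKM in WT Ang II library WTAng_II519 and at 2.46 to 6.91 in the others of that group. Sf3b3 was at 15.4 FPKM in WT Ang II library WTAngII580 and at 1.63 to 3.81 in the others. In the 0.25 on either side of 0 lay 29 of the 38 differences.

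Srsf3, the smallest SR protein, which also couples splicing to mRNA export, had the smallest p of this comparison. Its levels were 22.3, 23.7, 29.0, 20.4 and 25.1 FPKM in WT Ang II, and 14.0, 16.7, 25.6, 15.9 and 13.4 FPKM in WT saline. WT saline library WTNS_523 lay inside the WT Ang II range and the other 4 WT saline libraries lay below it. The difference was 0.50 ± 0.20 (SE), with an adjusted p of 0.938. Srsf2, also called SC35, came next, at 18.4, 20.8, 19.6, 17.8 and 17.1 FPKM in WT Ang II and 15.5, 18.4, 8.65, 14.4 and 16.9 FPKM in WT saline. The groups overlapped, and WT saline library WTNS_523 was the lowest. The difference was 0.36 ± 0.18, and 0.19 without that library.

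Hnrnph2, a G-run binding protein encoded on chromosome X, was at 30.4, 28.6, 30.7, 29.4 and 33.8 FPKM in WT Ang II and 29.1, 25.6, 29.2, 21.2 and 27.5 FPKM in WT saline. WT saline library WTNS_547 was the lowest, and the difference was 0.20 ± 0.10, or 0.13 without that library. Hnrnpdl, a relative of Hnrnpd, was at 33.2, 34.9, 39.4, 29.8 and 39.4 FPKM in WT Ang II and 33.5, 26.1, 32.9, 30.8 and 30.1 FPKM in WT saline, with overlap. Its difference was 0.20 ± 0.13, which was 0.07 with 3 covariates, the mean levels of markers of skeletal muscle, sympathetic neurons and brown fat, and 0.30 on protein-coding transcripts alone. Hnrnpk, which binds C-rich RNA, was at 70.8, 67.8, 72.1, 63.9 and 92.3 FPKM in WT Ang II and 55.2, 59.7, 71.7, 74.9 and 61.9 FPKM in WT saline, with overlap. Its difference was 0.18 ± 0.13, which was 0.09 without library WTAngII581, 0.05 with the marker covariates and 0.07 without libraries numbered below 500. These 4 genes had adjusted p values of 0.938.

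Between KO-labelled Ang II and WT Ang II no member and no gene passed the adjusted threshold (percent called 0). At an unadjusted p under 0.05, 2 of 38 members passed, against 7.10% of all genes. The median difference was -0.07 and 12 of 38 differences were above 0, beside a median of -0.02 and 47.5% above 0 over all genes. Between KO-labelled Ang II and WT saline none of the 38 members and 11 of 12546 genes (0.0877%) passed. At an unadjusted p under 0.05, 4 members passed, against 7.45% of all genes, and the median member difference was -0.01 with 18 of 38 above 0. The 3 comparisons share groups of libraries, so their values are not independent.

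**Figure D2:**
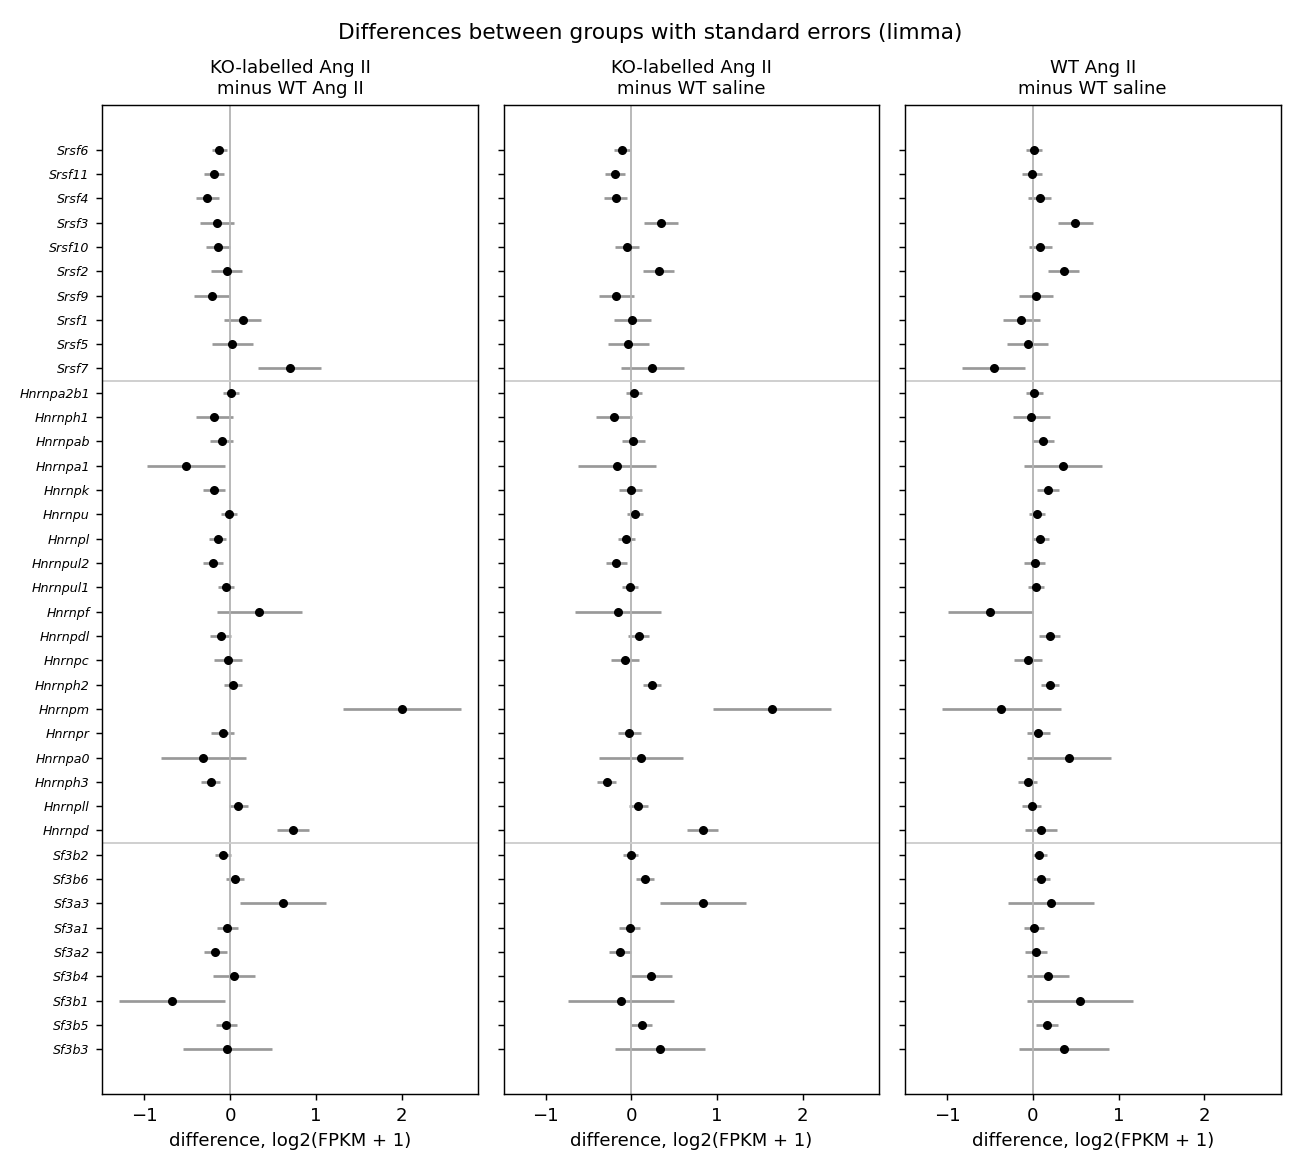
Difference between groups in log2(FPKM + 1) for each of the 38 genes (point) with its standard error from limma (bar), for KO-labelled Ang II minus WT Ang II, KO-labelled Ang II minus WT saline, and WT Ang II minus WT saline. Most points lie within 0.25 of 0, Hnrnpd lies at 0.74 and 0.83 in the panels with the KO-labelled libraries, and Hnrnpm has the largest standard error.

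Hnrnpd (chr5:99955935-99978938, minus strand, GRCm38) binds AU-rich elements of mRNA and promotes decay of many of them. It had the smallest p in both comparisons with the KO-labelled libraries. Its levels were 6.36, 4.24, 4.94, 7.88 and 7.16 FPKM in KO-labelled Ang II, against 2.25, 3.23, 3.36, 2.82 and 4.66 FPKM in WT Ang II. In WT saline they were 4.02, 3.25, 2.38, 2.54 and 2.67 FPKM. All 5 KO-labelled libraries were above all 5 WT saline libraries, and 4 of them were above every WT Ang II library, with library KOAngII537 below WT Ang II library WTAngII581. The difference was 0.74 ± 0.18 against WT Ang II (adjusted p = 0.674) and 0.83 ± 0.18 against WT saline (adjusted p = 0.169). Hnrnpd was the only 1 of the 38 members whose groups did not overlap between KO-labelled Ang II and WT saline, beside 1.54% of all genes tested, in either direction. In the other 2 comparisons no member's groups were separate, beside 0.885% of all genes between KO-labelled Ang II and WT Ang II and 1.03% between WT Ang II and WT saline.

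Most of the Hnrnpd difference lay on Hnrnpd-211, the transcript with both alternative exons printed above. Hnrnpd-211 had 4.52, 0.866, 3.37, 2.02 and 5.15 FPKM in the KO-labelled Ang II libraries, 0.519, 1.94, 1.24, 0.682 and 0.390 in the WT Ang II libraries and 0.271, 0.143, 1.19, 1.18 and 0.674 in the WT saline libraries. Its difference was 1.03 ± 0.33 against WT Ang II (adjusted p = 0.712 over 20766 transcripts) and 1.23 ± 0.33 against WT saline (adjusted p = 0.428). The transcripts that contain the 57 nt exon took 67.6% to 87.8% of the FPKM of those that contain or skip it in KO-labelled Ang II, 44.0% to 86.4% in WT Ang II and 21.5% to 82.6% in WT saline. For the 147 nt exon the shares were 33.5% to 72.9%, 31.9% to 61.4% and 41.0% to 66.9% in the same groups. The groups overlapped for both exons.

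Hnrnpm (chr17:33646233-33686860, minus strand) was at 30.6, 36.8, 33.9, 41.7 and 25.5 FPKM in KO-labelled Ang II. It was at 4.89, 35.0, 6.24, 4.57 and 4.36 FPKM in WT Ang II, and at 5.74, 4.91, 35.4, 37.2 and 1.95 FPKM in WT saline. All 5 KO-labelled libraries, 1 WT Ang II library and 2 WT saline libraries were thus above 25 FPKM and the other 7 below 7 FPKM, with none between. The split lay on the coding transcript Hnrnpm-201, which was listed at 0 in those 7 libraries and at 20.6 to 40.8 FPKM in the 8 others. The differences were 2.0 ± 0.69 against WT Ang II (adjusted p = 0.674) and 1.64 ± 0.69 against WT saline (adjusted p = 0.628). An exact 0 in a table of estimated values may be a failed estimate. The tables also hold transcripts with names starting MERGE, which carry no gene name and took 12.2% to 15.8% of the listed FPKM, and whether reads of Hnrnpm lie there was not tested.

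Hnrnph3 was at 14.6, 13.6, 15.7, 12.3 and 15.1 FPKM in the KO-labelled Ang II libraries, 15.6, 19.4, 16.5, 14.4 and 18.5 in the WT Ang II libraries and 17.9, 19.0, 18.7, 18.1 and 14.5 in the WT saline libraries. The KO-labelled libraries lay below 4 of the 5 WT saline libraries. The differences were -0.23 ± 0.11 against WT Ang II (adjusted p = 0.674) and -0.29 ± 0.11 against WT saline (adjusted p = 0.568). With protein-coding transcripts alone they were 0.03 and -0.08.

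Hnrnph2 was at 27.9, 32.3, 32.4, 35.7 and 28.7 FPKM in KO-labelled Ang II, and its WT saline values are given above. The groups overlapped, with a difference of 0.24 ± 0.10 (adjusted p = 0.653). Srsf2 was at 15.9, 16.6, 15.5, 26.1 and 18.2 FPKM in KO-labelled Ang II, where library KOAngII612 was the highest. It differed by 0.32 ± 0.18 from WT saline (adjusted p = 0.760), which was 0.15 without WTNS_523, 0.19 without KOAngII612 and 0.51 without libraries numbered below 500. Srsf4, a long-tailed SR protein, was at 22.4, 24.6, 20.3, 20.3 and 16.1 FPKM in KO-labelled Ang II and 21.8, 25.0, 31.1, 19.8 and 28.6 FPKM in WT Ang II, with overlap. Its difference was -0.27 ± 0.13 (adjusted p = 0.674), and -1.12 on protein-coding transcripts alone (adjusted p = 0.712). Srsf7 was at 3.08, 1.63, 3.88, 2.11 and 1.53 FPKM in KO-labelled Ang II and 1.35, 0.0074, 2.6, 2.2 and 0.348 FPKM in WT Ang II, where library WTAng_II536 was close to 0. Its difference was 0.70 ± 0.37 (adjusted p = 0.674), which was 0.44 without that library and 1.5 with a pseudocount of 0.1.

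**Figure D3:**
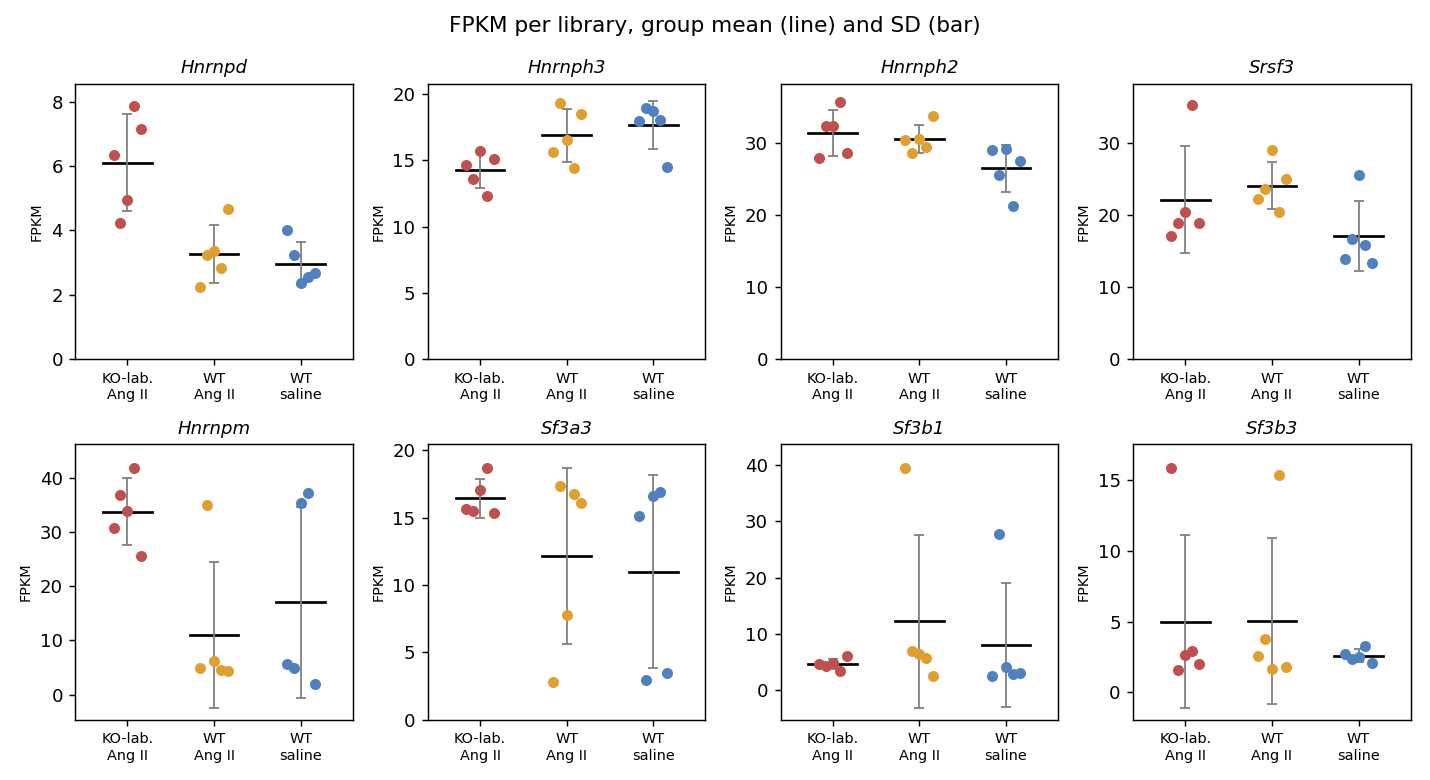
FPKM of 8 genes in each library (points) with the group mean (line) and SD (bar, n = 5), for KO-labelled Ang II, WT Ang II and WT saline from left to right. Hnrnpd shows all 5 KO-labelled libraries above the 5 WT saline libraries, and Hnrnpm, Sf3a3, Sf3b1 and Sf3b3 show libraries of the same group far apart.

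Srsf7, described above, and a few other genes differed widely between libraries of the same group. Sf3b1, the largest SF3B subunit, which contacts the branch point region, was at 4.59, 4.36, 4.87, 3.41 and 6.03 FPKM in the KO-labelled Ang II libraries. It was at 39.5, 6.91, 6.52, 5.77 and 2.46 FPKM in the WT Ang II libraries and at 2.52, 27.8, 4.08, 2.97 and 3.14 FPKM in the WT saline libraries, so WT Ang II library WTAng_II519 and WT saline library WTNS_373 stood alone. Sf3a3 had 15.6, 15.5, 17.0, 18.7 and 15.3 FPKM in the KO-labelled libraries, 2.81, 17.3, 7.75, 16.8 and 16.1 in WT Ang II and 15.1, 2.94, 16.6, 16.9 and 3.44 in WT saline. The low libraries were WTAng_II519 and WTAngII568 in WT Ang II and WTNS_373 and WTNS_550 in WT saline. Sf3b3 had 15.9 FPKM in KO-labelled library KOAng_II402 and 15.4 FPKM in WT Ang II library WTAngII580, and 1.56 to 3.81 FPKM in the other 13 libraries. Its share on transcripts not annotated as protein coding was 2.28% and 9.40% in those 2 libraries and 21.5% to 96.6% in the other 13. The part of read sharing among transcripts in the Sf3b1 and Sf3b3 values was not tested. Hnrnpa0, an intronless gene with 1 listed transcript, ran from 2.57 to 35.3 FPKM, Hnrnpf from 11.3 to 66.8 FPKM, and Hnrnpa1, a broad splicing silencer, from 15 to 104 FPKM. Hnrnpa1 has many processed pseudogenes, so how its reads were placed is uncertain.

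The highest library was at least 5 times the lowest for 8 of 38 members (21.1%) and for 30.8% of all genes tested. With a mean of at least 10 FPKM it was so for 5 of 30 members (16.7%) and for 15.9% of 4753 genes. The median coefficient of variation over the 15 libraries was 14.5% for the members and 30.1% for all genes, and 14.2% and 23.3% at a mean of at least 10 FPKM. Among the steadiest were Hnrnpa2b1 at 7.18%, Sf3b2 at 7.37%, Hnrnpu, a nuclear scaffold protein, at 7.46%, and Hnrnpul1 at 7.67%. These figures are descriptions and no test was made of them.

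Several steady genes exchanged transcripts between libraries. In Hnrnpr, a protein with several RNA recognition motifs, the coding transcripts Hnrnpr-202 and Hnrnpr-204 ran from 0.934 to 21.8 FPKM and from 1.35 to 19.6 FPKM, while their sum ran from 15.2 to 23.3 FPKM. Hnrnpr-202 was the higher of the pair in 2 of 5 KO-labelled Ang II, 3 of 5 WT Ang II and 1 of 5 WT saline libraries. In Srsf4 the retained-intron transcript Srsf4-201 led the coding transcript Srsf4-202 in 3 of 5 KO-labelled Ang II, 1 of 5 WT Ang II and 4 of 5 WT saline libraries, and their sum ran from 14.2 to 24 FPKM. Srsf4-202 was thus at 4.24, 19.7, 21.9, 16.3 and 22.6 FPKM in the WT Ang II libraries and at 4.41, 19.7, 3.70, 3.07 and 3.57 FPKM in the WT saline libraries, a difference of 1.34 ± 0.62 (adjusted p = 0.928). In Hnrnpul1 the coefficient of variation was 29.3% and 79.5% for the 2 coding transcripts and 8.44% for their sum. The program that shared reads among transcripts is not given in the sources used here, and its part in these exchanges was not tested. The genes shown this way were chosen after their values were seen.

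Across the members, the transcript with the highest FPKM was not the same in all 15 libraries for 16 of 31 genes with at least 2 transcripts (51.6%), and for 62.0% of 7100 such genes in all. It was the same in all libraries for Hnrnpab, Hnrnph1, Hnrnpk, Hnrnpu, Hnrnpll and 10 others.

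**Figure D4:**
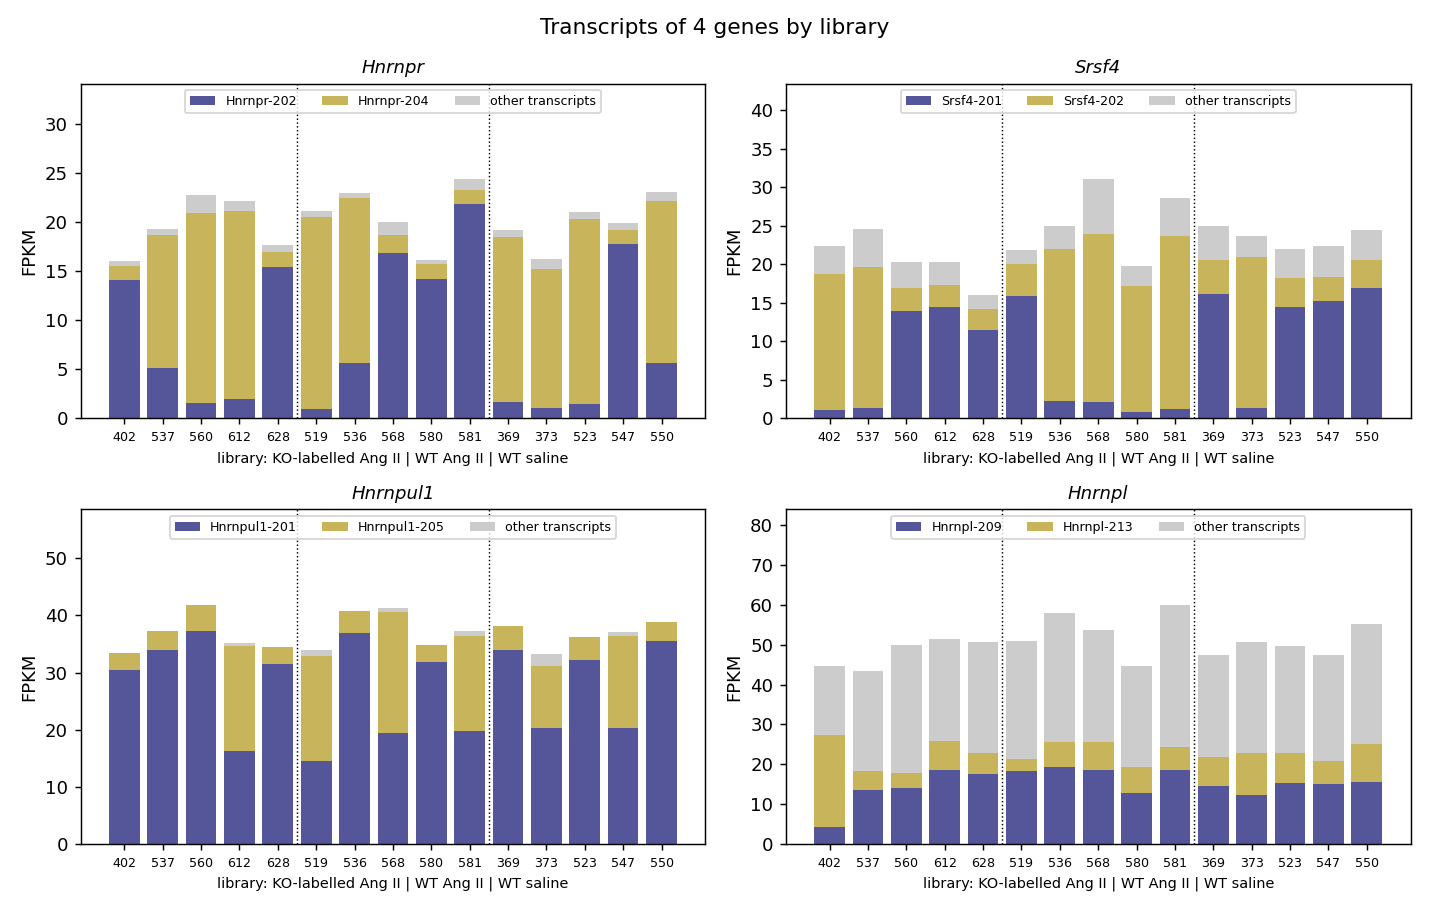
FPKM of 2 transcripts and of the remaining transcripts (stacked bars) of Hnrnpr, Srsf4, Hnrnpul1 and Hnrnpl in each library, with dotted lines between KO-labelled Ang II, WT Ang II and WT saline. In Hnrnpr and Srsf4 either transcript of the pair can fill most of the bar within the same group, and in Hnrnpl the decay transcript fills more in KO-labelled library KOAng_II402 than in any other.

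The alternative exons of Hnrnpa2b1 and Hnrnpab kept similar shares across the libraries. For Hnrnpa2b1 these shares count decay transcripts as well as coding ones. Over the 15 libraries the decay transcript Hnrnpa2b1-207, with the 36 nt exon, averaged 5.87 FPKM and the coding Hnrnpa2b1-203 3.49 FPKM. Hnrnpa2b1-203 was lowest in WTAngII581 and KOAng_II402, at 0.910 and 0.941 FPKM, where Hnrnpa2b1-207 was at 8.74 and 7.24 FPKM. The share of that exon is therefore not that of RNA coding for B1. Transcripts with the 36 nt exon of Hnrnpa2b1 took 7.42% to 9.13% in KO-labelled Ang II, 7.38% to 11% in WT Ang II and 7.84% to 8.95% in WT saline. Transcripts with the 120 nt exon took 44.4% to 54.3%, 45.1% to 55.7% and 50.6% to 55.1%, and those with the 141 nt exon of Hnrnpab, a protein related to Hnrnpd, took 66.7% to 69.5%, 62.3% to 71.6% and 68.3% to 73.5%, in the same groups. In Hnrnpl, which binds CA repeats, transcripts with the 70 nt decay exon took 14.1% to 65.6% in KO-labelled Ang II, 10.6% to 26.3% in WT Ang II and 21.6% to 33.9% in WT saline. The 65.6% was library KOAng_II402, where the decay transcript Hnrnpl-213 was at 23.0 FPKM and the coding transcript Hnrnpl-209 at 4.30 FPKM. No exon's groups were separate in any comparison.

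Transcripts not annotated as protein coding (retained introns, decay transcripts and processed transcripts) were 71 of the 155. They took 23.9% ± 2.6 of the members' FPKM in KO-labelled Ang II, 25.1% ± 2.37 in WT Ang II and 26.6% ± 1.20 in WT saline (SD, n = 5 each). For all protein-coding genes together the shares were 6.10% ± 0.516, 7.14% ± 0.754 and 6.56% ± 0.507. By gene the mean share was highest for Hnrnph1 at 96.1%, where the processed transcript Hnrnph1-217 led in every library, then for Sf3b3 at 62.2%, Srsf4 at 54.9%, Hnrnpl at 51.5% and Hnrnph3 at 48.5%. Over the 23 members with both kinds of transcript the median was 29.6%, the share of Hnrnpk, and the lowest was 3.26%, for Sf3b6. The median over 4682 genes with both kinds of transcript was 21.2%.

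None of the 23 members tested on the log2 ratio of non-coding to coding FPKM passed in limma, nor did any of the 4682 genes, in any of the 3 comparisons (percent called 0). At an unadjusted p under 0.05, 3 members passed between KO-labelled Ang II and WT Ang II (6.15% of all genes), 1 between KO-labelled Ang II and WT saline (5.51%) and 0 between WT Ang II and WT saline (5.38%). Srsf2, an SR protein known to limit its own mRNA by promoting splicing that leads to decay, had a non-coding share of 9.98%, 17.8%, 10.6%, 9.57% and 7.05% in the KO-labelled Ang II libraries. Its shares were 22.8%, 21.5%, 16.5%, 12.7% and 17.0% in WT Ang II and 17.0%, 17.9%, 14.4%, 22.8% and 18.9% in WT saline. Library KOAngII537 was the only 1 of the KO-labelled libraries inside the WT ranges. The difference in the log2 ratio was -0.73 ± 0.27 against WT Ang II (adjusted p = 0.779) and -0.81 ± 0.27 against WT saline (adjusted p = 0.85). For Hnrnpm the differences were -2.57 ± 1.00 and -2.07 ± 1.00 in those comparisons, and for Sf3b6 -0.66 ± 0.29 against WT Ang II. For Srsf4 the difference was -2.40 ± 1.13 between WT Ang II and WT saline. The Hnrnpm ratios include the libraries in which coding Hnrnpm-201 was listed at 0, so the limit given above holds for them. The Srsf4 ratio includes the exchange of Srsf4-201 and Srsf4-202 given above.

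**Figure D5:**
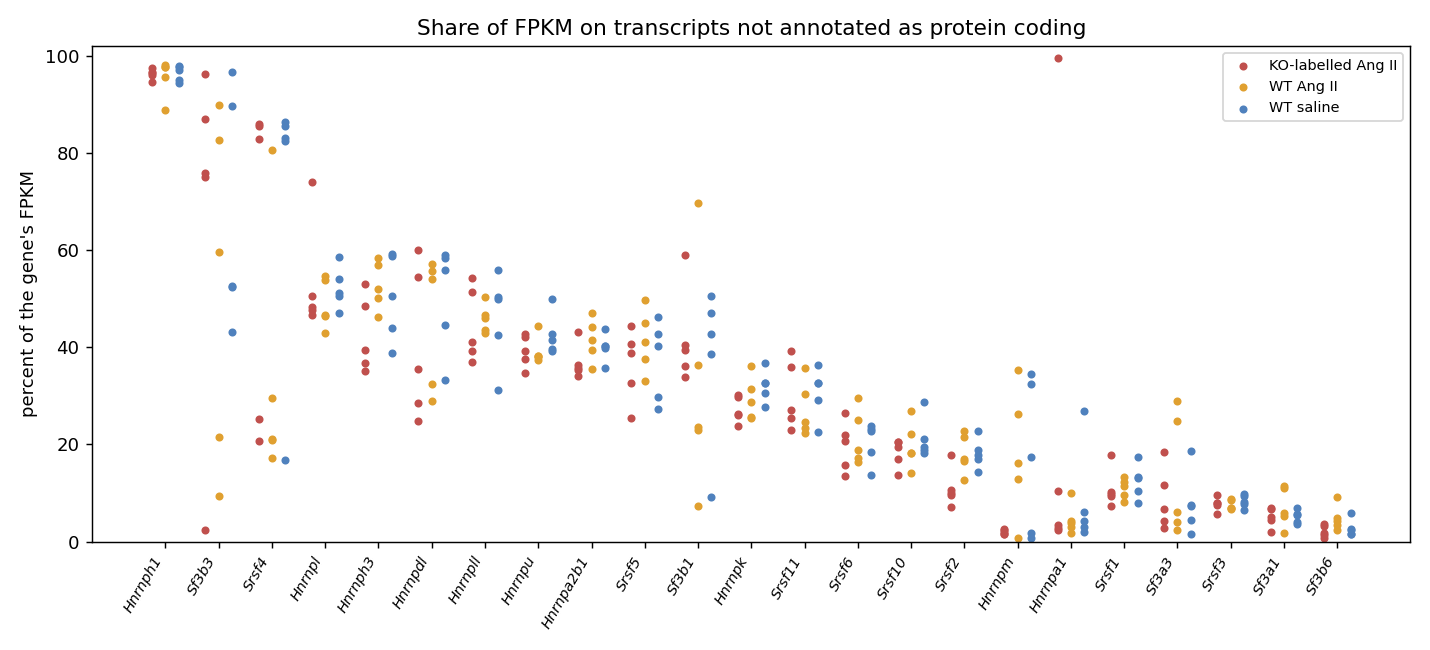
Percent of each gene's FPKM on transcripts not annotated as protein coding, by library (points), for 23 genes ordered by their mean, in KO-labelled Ang II, WT Ang II and WT saline from left to right within a gene. Hnrnph1 is above 88% in every library, Srsf4 falls into a high and a low cluster in each group, and most other genes overlap between the groups.

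Of the 121 member transcripts tested, none passed after adjustment in any of the 3 comparisons with limma, while 1 of 20766 transcripts passed between KO-labelled Ang II and WT Ang II (0.00482%), 15 between KO-labelled Ang II and WT saline (0.0722%) and 2 between WT Ang II and WT saline (0.00963%). At an unadjusted p under 0.05, 8, 8 and 4 member transcripts passed in those comparisons, against 6.85%, 6.64% and 5.32% of all transcripts. The retained-intron transcript Hnrnpl-205 had the smallest p. It was at 0.761, 0.855, 2.15, 0.620 and 1.31 FPKM in the KO-labelled Ang II libraries, 3.05, 2.56, 1.96, 3.29 and 2.76 in WT Ang II and 1.25, 0.912, 1.57, 1.75 and 1.86 in WT saline. All 5 WT Ang II libraries were above all 5 WT saline libraries. The differences were -0.83 ± 0.20 between KO-labelled Ang II and WT Ang II (adjusted p = 0.493) and 0.60 ± 0.20 between WT Ang II and WT saline (adjusted p = 0.802). Srsf2-201, a coding transcript, was at 4.39 to 9.46 FPKM in KO-labelled Ang II and 2.74 to 4.23 FPKM in WT saline, with no overlap, and differed by 0.63 ± 0.20 (adjusted p = 0.569).

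Groups that did not overlap were found for 1 of the 121 member transcripts between KO-labelled Ang II and WT Ang II, beside 1.01% of all transcripts in either direction. They were found for 3 between KO-labelled Ang II and WT saline, beside 1.41%, and for 2 between WT Ang II and WT saline, beside 0.997%. Srsf11-202, a coding transcript, was at 16.3 to 18.9 FPKM in KO-labelled Ang II and 19.5 to 22.0 FPKM in WT Ang II, a difference of -0.22 ± 0.09 (adjusted p = 0.712). Hnrnph3-206, a retained-intron transcript, was at 1.99 to 2.6 FPKM in KO-labelled Ang II and 2.93 to 4.92 FPKM in WT saline, a difference of -0.43 ± 0.17 (adjusted p = 0.663). Hnrnpab-202, a coding transcript, was at 0.743 to 1.03 FPKM in KO-labelled Ang II, 0.271 to 0.916 FPKM in WT Ang II and 1.25 to 9.28 FPKM in WT saline, where 9.28 FPKM was library WTNS_373 alone and the other 4 were at or below 1.95 FPKM. It differed from WT saline by -0.81 ± 0.34 in KO-labelled Ang II (adjusted p = 0.702) and by -0.95 ± 0.34 in WT Ang II (adjusted p = 0.831), and without WTNS_373 these differences were -0.40 and -0.54. The remaining ones were Hnrnpl-205 and Srsf2-201, given above. Among the 5 transcripts with the smallest p in a comparison were also Hnrnpm-201, at 3.93 ± 1.23, and Hnrnpdl-204, at -0.54 ± 0.21, between KO-labelled Ang II and WT Ang II. They further included Hnrnph3-204, at -0.52 ± 0.20 between KO-labelled Ang II and WT saline, and Srsf3-202, at 0.51 ± 0.21, and Hnrnpk-205, at 0.25 ± 0.12, between WT Ang II and WT saline.

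Genes that work with these factors gave no calls either. With limma 0 genes passed in any comparison among 8 tested of the U1 snRNP, 16 of the Sm proteins and U2 recognition, 16 of the tri-snRNP and catalytic spliceosome, 17 SR-related coactivators, 14 SR protein kinases, phosphatase and import factors, 38 other splicing regulators and 14 of nonsense-mediated decay and the exon junction. At an unadjusted p under 0.05, 9 of the 38 other regulators were lower and 0 higher in KO-labelled Ang II than in WT saline, beside 3.97% of all genes lower and 3.48% higher. In that comparison 2 of the 17 coactivators, 1 of the 14 kinases and import factors and 1 of the 14 decay genes were lower at that p, 0 of the U1, U2 and tri-snRNP lists were, and 0 were higher in any of these lists. Of the other regulators 4 were lower and 1 higher in KO-labelled Ang II than in WT Ang II, and 1 was lower and 2 were higher in WT Ang II than in WT saline. Snrnp70, a U1 protein, averaged 27.1 ± 4.66, 26.8 ± 3.57 and 22.2 ± 2.13 FPKM in KO-labelled Ang II, WT Ang II and WT saline. Clk1, a kinase of SR proteins, averaged 33.3 ± 4.92, 40.6 ± 6.14 and 44.1 ± 5.02 FPKM, a difference of -0.40 between KO-labelled Ang II and WT saline (adjusted p = 0.454). Rbm39, a U2AF-related factor, averaged 48.2 ± 14.6, 66.0 ± 6.42 and 66.5 ± 2.77 FPKM (adjusted p = 0.552). Eif4a3, the anchor of the exon junction complex, averaged 27.8 ± 2.61, 30.1 ± 3.58 and 30.4 ± 2.06 FPKM.

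Markers of the vessel wall and of other tissue varied between libraries and groups. All 10 smooth muscle markers were listed, with summed levels of 6795 to 12382 FPKM in KO-labelled Ang II, 8398 to 17254 in WT Ang II and 6953 to 15311 in WT saline. All 10 sympathetic neuron markers were listed, at 54.4 to 1132 FPKM, 33.1 to 200.3 FPKM and 40.2 to 650.1 FPKM. All 8 brown adipocyte markers were listed, at 338 to 2352 FPKM, 140 to 2363 FPKM and 550 to 3085 FPKM, in the same order of groups. Between KO-labelled Ang II and WT Ang II, 9 of 10 sympathetic neuron markers had differences above 0, with a median of 2.01. For brown adipocyte markers it was 7 of 8, with a median of 0.99, and for smooth muscle markers 1 of 10, with -0.41. At an unadjusted p under 0.05 in limma, 2 sympathetic neuron markers were higher and 0 lower. In these lists 0 passed after adjustment. All 8 macrophage markers were listed, at 228 to 485 FPKM in KO-labelled Ang II, 317 to 443 FPKM in WT Ang II and 218 to 314 FPKM in WT saline. Their sums did not overlap between WT Ang II and WT saline, where 8 of 8 had differences above 0 with a median of 0.60, 6 had an unadjusted p under 0.05 and 0 passed after adjustment. Of 14 intestine markers 10 were listed, at 36.2 to 76.1 FPKM in KO-labelled Ang II, 7.24 to 43.0 FPKM in WT Ang II and 4.46 to 8.59 FPKM in WT saline. Of the 9 tested, 7 passed between KO-labelled Ang II and WT saline in limma, but no gene passed in that comparison when WTNS_523, WTNS_547 or KOAngII537 was left out. Within WT Ang II the intestine sum was 43.0 and 36.9 FPKM in WTAngII580 and WTAngII581 and 7.24 to 14.3 FPKM in the others. The summed nuclear non-coding RNAs, of which 6 of 7 were listed, were at 154 to 194 FPKM in KO-labelled Ang II, 161 to 265 FPKM in WT Ang II and 208 to 332 FPKM in WT saline, without overlap between KO-labelled Ang II and WT saline. That sum did not describe the list gene by gene. Between KO-labelled Ang II and WT saline, 3 of 6 had differences above 0, with a median of 0.04. At an unadjusted p under 0.05, 1 was lower and 0 were higher, and 0 passed after adjustment. Malat1 averaged 55.9 FPKM in KO-labelled Ang II and 139.6 FPKM in WT saline, whereas Neat1 averaged 57.4 and 51.4 FPKM. The part of these markers in the member differences was not tested beyond the fit with the 3 marker covariates named above, in which the median member difference was -0.0032 between KO-labelled Ang II and WT Ang II, -0.03 between KO-labelled Ang II and WT saline and -0.01 between WT Ang II and WT saline.

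The KO saline table listed 5 member transcripts, of which Hnrnpf-204 and Hnrnpf-208 were in every table. Hnrnpf-208 was the only member that could be tested. It was at 4.71, 6.77, 0, 3.40 and 4.61 FPKM in the KO-labelled Ang II libraries and listed at 0 in all 5 KO-labelled saline libraries. It was listed at 0 in 4 of 5 WT Ang II libraries too, with 8.50 FPKM in library WTAngII580. In WT saline it was at 0, 3.78, 4.43, 5.01 and 0 FPKM. Of 619 such transcripts 123 (19.9%) passed between KO-labelled Ang II and KO-labelled saline, Hnrnpf-208 among them (adjusted p = 0.0398). That call was lost in 9 of 10 fits that left out 1 library, and values listed at 0 may be failed estimates. With 0 in all 5 KO-labelled saline libraries, Hnrnpf-208 reached the filter of 1 FPKM only through other groups. Its difference from KO-labelled saline could therefore only be above 0, and the call is no support for a change. Of the 619 transcripts 61.6% had an unadjusted p under 0.05. How the transcripts of the KO saline table were chosen was not tested. Between KO-labelled saline and WT saline 7 (1.13%) passed, and Hnrnpf-208 had an adjusted p of 0.226.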

How the data were processed

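RNA from 20 mouse abdominal aorta libraries was deposited as FPKM per transcript, as the authors computed it; the unit was inferred from the values, which times transcript length fell within 0.05 reads of whole numbers for 97.9% to 99.1% of low values, giving a depth of 59.0 to 74.8 megareads. Per the labels' protocols, libraries were made from TRIzol-extracted total RNA with a NEBNext Ultra kit, and per the submitters' processing notes bcl2fastq, FastQC, fastp and mm10 were used. Aligner, quantifier and use of strand were not given in the sources used here, so overlapping or antisense genes and close paralogs cannot be told apart. Titles gave the groups, although the libraries with a KO saline title are described as WT. Nothing says that libraries came from separate animals beyond the numbers in their titles, so p-values measure the spread between libraries.

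Ensembl transcripts in GENCODE M21 that both the WT and the KO Ang II tables list were summed per gene. In the WT tables the larger of the 2 WT group means was at least 0.5 FPKM for every listed transcript. For transcripts in both tables the larger of the WT Ang II and KO-labelled Ang II means was at least 0.5 FPKM. The KO-labelled mean could be lower, as for Hnrnpd-203, at 0.313 FPKM in KO-labelled Ang II and 0.616 FPKM in WT Ang II. Listing thus depended on levels in the groups compared. Genes and transcripts whose mean over 15 libraries reached 1 FPKM were tested with limma 3.58.1 (trend and robust) in R 4.3.3 on log2(FPKM + 1), which shrinks the differences of low genes, with 1 model over 3 groups and Benjamini-Hochberg adjustment over all features (threshold 0.05). The ratio of non-coding to coding FPKM used a pseudocount of 0.5. Fits were tested on simulated data. The members, gene lists and tests were chosen with earlier results of these data known. Values per library are given for the 5 members with the smallest p per comparison and for genes singled out after their values were seen. The rule also asked for them for the 2 highest of each family, for transcripts and non-coding ratios with the smallest p, for the highest non-coding shares and for 2 genes of each pathway list, of which most are given by mean, range or difference. Results on 1 alternative exon are not reported here.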

Additional observations from a re-analysis of the deposited data

Results flagged for a closer look

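In 14 of 114 groups of 5 libraries (38 genes in 3 groups) the highest or lowest library stood apart from the other 4 by Dixon's criterion, which chance meets in about 1 of 20 groups. That was 12.3% of the groups examined, beside 10.1% of 37638 such groups over all genes tested. KO-labelled Ang II library KOAngII612 was the highest of its group for Hnrnpab at 115.9 FPKM (others 72.7 to 76.7), Srsf3 at 35.3 FPKM (others 17.1 to 20.4), Srsf2 at 26.1 FPKM (others 15.5 to 18.2) and Sf3b5 at 5.72 FPKM (others 3.90 to 4.29). KO-labelled Ang II library KOAng_II402 was the highest for Sf3b3 at 15.9 FPKM (others 1.56 to 2.97), and library KOAngII628 the lowest for Hnrnpul2 at 27.8 FPKM (others 37.1 to 37.9).

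In WT Ang II, library WTAng_II536 was the highest for Hnrnpm at 35.0 FPKM (others 4.36 to 6.24), library WTAngII581 for Srsf5 at 29.6 FPKM (others 10.8 to 13.4), library WTAng_II519 for Sf3b1 at 39.5 FPKM (others 2.46 to 6.91) and library WTAngII580 for Sf3b3 at 15.4 FPKM (others 1.63 to 3.81). Library WTAngII580 was also the lowest for Sf3b2 at 44.9 FPKM (others 52.1 to 55.1). In WT saline, library WTNS_523 was the highest for Srsf3 at 25.6 FPKM (others 13.4 to 16.7), library WTNS_373 the highest for Sf3b1 at 27.8 FPKM (others 2.52 to 4.08) and library WTNS_550 the lowest for Hnrnph3 at 14.5 FPKM (others 17.9 to 19.0). The limits given above for the transcripts of Hnrnpm, Sf3b1 and Sf3b3 hold here too.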

How the results depend on the processing

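No member passed between WT Ang II and WT saline, or between KO-labelled Ang II and WT saline, in any alternative run. Against WT Ang II libraries WTAngII580 and WTAngII581 alone, 1 member gene, 1 member transcript and 1 member ratio passed between KO-labelled Ang II and WT Ang II, all of Hnrnpm (differences 2.65, 4.93 and -3.35, adjusted p 0.0268, 0.00341 and 0.0112). Both of those libraries list Hnrnpm-201 at 0, and they had the highest intestine marker sums of WT Ang II, given above. The counts of all genes called were 2 with sample quality weights and 1 with protein-coding transcripts only between WT Ang II and WT saline, and 6 against libraries WTAngII580 and WTAngII581 alone between KO-labelled Ang II and WT Ang II. Between KO-labelled Ang II and WT saline they were 18 with sample quality weights, 1 with marker covariates, 0 with a pseudocount of 0.1 and 0 without libraries numbered below 500, and the cause was not tested. Leaving out 1 library at a time, all genes called ran from 0 to 2 between WT Ang II and WT saline, 0 to 3 between KO-labelled Ang II and WT Ang II and 0 to 11 between KO-labelled Ang II and WT saline (0 without WTNS_523 or WTNS_547, or KO-labelled KOAngII537). The call of Hnrnpf-208 between KO-labelled Ang II and KO-labelled saline ran from 0 to 1 and was lost in 9 of 10 such fits. Hnrnph3 between KO-labelled Ang II and WT Ang II was 0.032 with protein-coding transcripts only (adjusted p 0.970). Over all alternatives the median member difference stayed within 0.16 of the value reported, which is 1 SD of the library medians of the members. That band is wider than the medians themselves, so a change of sign falls within it. The median ran from -0.01 to 0.11 between WT Ang II and WT saline and from -0.04 to 0.04 between KO-labelled Ang II and WT saline. Between KO-labelled Ang II and WT Ang II it ran from -0.13 to -0.0032. The Hnrnpd difference ran from 0.59 to 0.89 against WT Ang II and from 0.74 to 1.01 against WT saline, with adjusted p of 0.145 to 1.00 and 0.101 to 0.468. No paired analysis was possible because the groups share no replicate numbers. Depth was 59.0 to 74.8 megareads, and isoform levels depend on an unstated sharing of reads.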
